A study of Mus musculus with 10 samples.

Results

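The cerebral cortex is built of layers of excitatory neurons that differ in birth date, shape and target. A small set of genes, many of them for transcription factors, marks or specifies these layers. The genes described here are 9 layer identity genes chosen by name: Cux1, Mef2c, Tbr1, Bcl11a, Bcl11b, Sox5, Crym, Foxp1 and Fezf2. Crym is no transcription factor. Of these, 8 had a row among the 6147 genes of the deposited table, and all 8 averaged at least 1 TPM over the libraries, as did 6048 genes in all, which were tested. Fezf2 is not analysed here. TPM is a gene's share of all transcripts, scaled to a fixed total after division by a gene length. A level is therefore relative to the other transcripts of its library, and comparisons between libraries depend on the scaling. Comparisons between genes rest on gene lengths that no source used here gives.

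The libraries were made from polyadenylated RNA of neocortex of CD1 wild type mice, an outbred strain. The 5 stages were the embryonic days E12.5, E14, E15.5 and E17 and the day of birth, P0, with 2 libraries each and 10 in all. All groups were untreated wild type animals and differed in age only, as far as the labels say. The labels call the pairs biological duplicates and do not say whether tissue was pooled over embryos or litters, so p-values measure the spread between these libraries.

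Neurons of the deep layers, 5 and 6, are born before those of the upper layers, 2 to 4. Tbr1 and Sox5 mark and specify layer 6 and the early corticofugal neurons, Bcl11b (Ctip2) the subcerebral neurons of layer 5, and Crym, the thyroid hormone binding protein mu-crystallin, deep layer neurons that include corticospinal ones. Cux1 marks the upper layers and is also made in progenitors, Mef2c is an activity-linked factor of maturing neurons, and Bcl11a (Ctip1) and Foxp1 are made in neurons of several layers. In whole tissue, fewer cells of a type and less RNA per cell cannot be told apart.

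The 8 genes reached their highest mean at different ages. Cux1 was highest at E12.5, Tbr1 at E14, Bcl11b and Sox5 at E15.5, Bcl11a and Crym at E17, and Foxp1 and Mef2c at P0. Bcl11a averaged 202 TPM at E17 and 198 at E15.5, and Crym 48.4 at E17 and 46.5 at P0, so these places were close. Without E17 replicate 1, Bcl11a was at -0.12 from E15.5 to E17 (log2 scale). Crym from E17 to P0 was at 0.065 without P0 replicate 2, 0.052 under quantile normalization and 0.045 under median-of-ratios scaling. All 8 varied over the 5 stages in limma's moderated F test, with Benjamini-Hochberg adjusted p between 1.44e-10 for Mef2c and 0.00714 for Bcl11a; 82.9% of all genes tested did so too. From E12.5 to P0, 3 of the 8 rose (Mef2c, Crym and Foxp1) and 4 fell (Sox5, Tbr1, Bcl11b and Cux1), against 78.2% of all genes called, 27.1% higher and 51.0% lower. That split depends on the scaling: of 6048 genes, 1641 were called higher and 3087 lower in the deposited scale, but median-of-ratios scaling gave 2293 and 2282, and quantile normalization 2214 and 2419. Median-of-ratios scaling called 4 of the 8 genes higher, with Bcl11a added, and the same 4 lower. The 7 calls from E12.5 to P0 held without any one library. The median change of the 8 genes was -0.27 on the log2(TPM + 1) scale, the same as the median of all genes tested, -0.27.

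**Figure D1:**
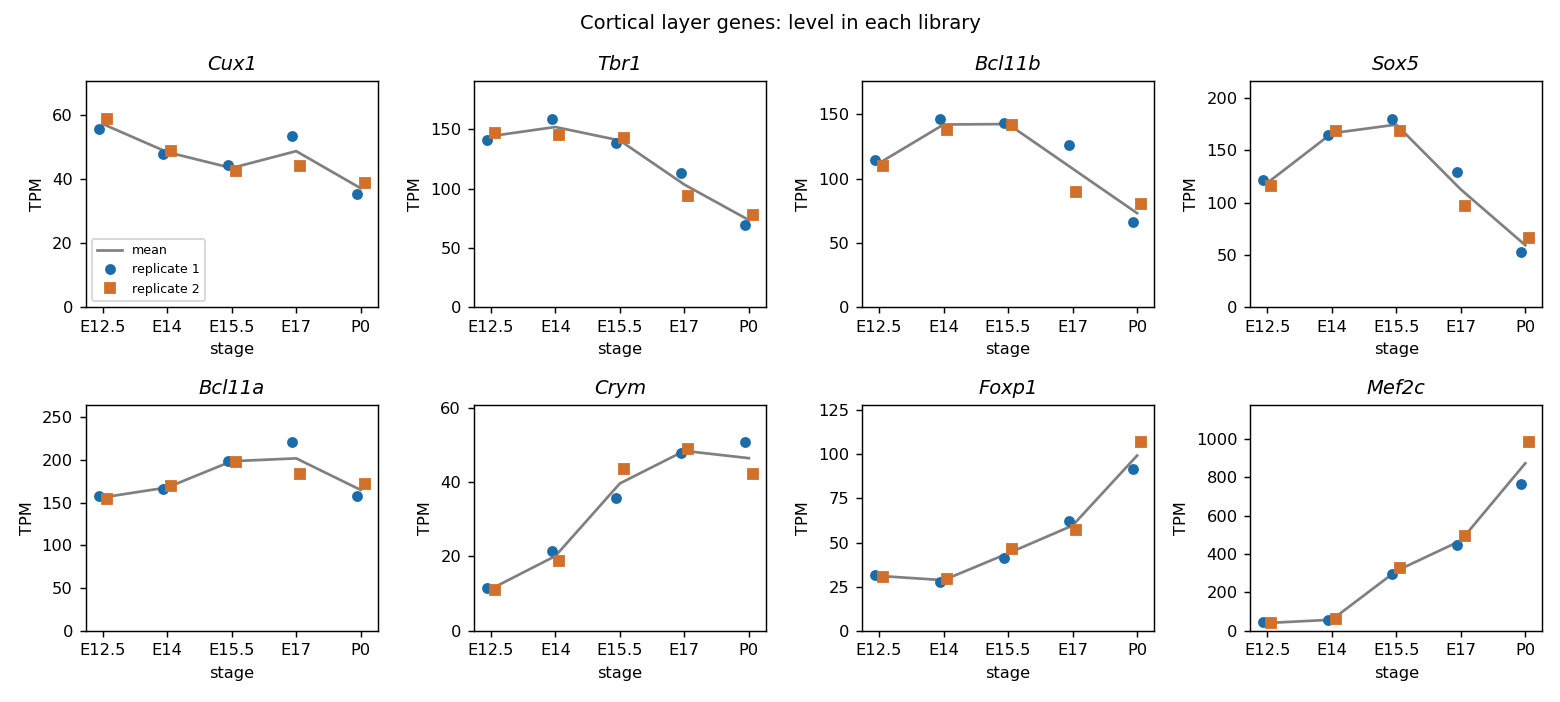
Level of each layer gene in TPM (vertical axis, from 0) at each stage (horizontal axis); circles are replicate 1, squares replicate 2 and the line joins the means. Cux1, Tbr1, Bcl11b and Sox5 are lowest at P0, Bcl11a stays between 154 and 220 TPM, and Mef2c climbs from 38.0 to 981 TPM.

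Among the deep layer regulators, Tbr1 is the T-box factor that sets layer 6 corticothalamic identity (Ensembl ENSMUSG00000035033, chr2:61802930-61814114, forward strand, in GRCm38). It stood at 141 and 147 TPM at E12.5, 159 and 145 at E14, 138 and 143 at E15.5, 113 and 93.8 at E17, and 69.3 and 77.6 at P0. The first 3 stages overlapped or lay close together, and both P0 libraries were below the 8 others. Tbr1 fell by 0.93 from E15.5 to P0 (SE 0.10, adjusted p 1.68e-05 in limma) and by 0.97 from E12.5 to P0 (SE 0.10, adjusted p 2.66e-06). The values from E12.5 to E14 (0.07, adjusted p 0.690) and from E14 to E15.5 (-0.11, adjusted p 0.367) did not pass the threshold. The highest mean moved from E14 to E15.5 under median-of-ratios scaling.

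Sox5, a SoxD factor that controls the sequence in which corticofugal neurons are made (ENSMUSG00000041540, chr6:143828425-144781977, reverse strand), stood at 122 and 116 TPM at E12.5 and at 164 and 168 at E14. It reached 180 and 169 at E15.5, then stood at 129 and 96.2 at E17 and at 52.4 and 66.1 at P0. Both E15.5 libraries were above, and both P0 libraries below, all others. E15.5 replicate 2 (168.9 TPM) was only just above E14 replicate 2 (168.4). The value from E14 to E15.5 (0.07, adjusted p 0.685 in limma) was not called. From E12.5 to E15.5 Sox5 rose by 0.55 (SE 0.13, adjusted p 0.00346), and from E15.5 to P0 it fell by 1.55 (SE 0.13, adjusted p 3.37e-06). Its mean at E15.5 was 2.95 times that at P0, the widest range of the 4 genes that fell over the whole span.

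Bcl11b, the zinc finger factor that directs the outgrowth of subcerebral axons (ENSMUSG00000048251, chr12:107910403-108003602, reverse strand), stood at 114 and 110 TPM at E12.5 and at 147 and 137 at E14. It was at 143 and 142 at E15.5, 126 and 89.2 at E17, and 66.2 and 79.9 at P0. E14 and E15.5 overlapped, and the P0 libraries were the lowest of the 10. Bcl11b fell by 0.96 from E15.5 to P0 (SE 0.14, adjusted p 0.000169). Its rise from E12.5 to E15.5 (0.34, SE 0.14, adjusted p 0.0458) did not hold when E12.5 replicate 1 (adjusted p 0.104) or replicate 2 (0.167) was left out, nor E15.5 replicate 1 (0.136) or its partner, replicate 2 (0.128). It was also lost without either E14 library (0.0637 and 0.0636) and without P0 replicate 1 (0.0550) or replicate 2 (0.0551). The highest mean was at E14 without E14 replicate 2 or E15.5 replicate 1.

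Over the 10 libraries, log2(TPM + 1) of Sox5 and Bcl11b had a Pearson correlation of 0.99, that of Sox5 and Tbr1 0.92, and that of Tbr1 and Bcl11b 0.92. The 10 points share 5 stages and, within a stage, the state of each library, so these values describe a common course only. At E17 replicate 1 was above replicate 2 for each of the 3 genes, and for Bcl11a, Cux1 and Foxp1. The pair of E17 libraries was also the least alike over all genes tested: log2 differences within it had an SD of 0.285, against 0.0880 to 0.176 within the other pairs.

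Bcl11a is the paralog of Bcl11b and works in upper and deep layer neurons (ENSMUSG00000000861, chr11:24078056-24174123, forward strand). It stood at 158 and 154 TPM at E12.5, 166 and 169 at E14, 199 and 198 at E15.5, 220 and 183 at E17, and 158 and 171 at P0. The range was narrow: the highest mean was 1.29 times the lowest. Bcl11a rose by 0.34 from E12.5 to E15.5 (SE 0.09, adjusted p 0.00538). From E15.5 to P0 it fell by 0.27 (adjusted p 0.0271), a call lost without E15.5 replicate 1 (0.120), E15.5 replicate 2 (0.105) or P0 replicate 1 (0.151) and under median-of-ratios scaling (-0.17, 0.0869). The value from E12.5 to P0 was 0.08 (SE 0.09, adjusted p 0.442), and under median-of-ratios scaling it was a called rise of 0.35 (adjusted p 0.00122).

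Within each library, Bcl11a was above Bcl11b by 1.38 and 1.41 times at E12.5, 1.13 and 1.23 times at E14, 1.39 and 1.39 times at E15.5, 1.75 and 2.05 times at E17, and 2.39 and 2.15 times at P0. The 4 libraries of E17 and P0 thus had higher ratios than the 6 earlier ones. These are ratios of TPM, as are all ratios within a library given in the text below. A factor that scales the whole library leaves them unchanged. The plot of within-library ratios by stage shows differences of log2(TPM + 1) instead. Sox5 was above Bcl11b in the 8 embryonic libraries, by 1.02 to 1.26 times, and below it at P0, at 0.791 and 0.827 times. Tbr1 exceeded Bcl11b by 1.24 and 1.34 times at E12.5 and lay between 0.894 and 1.08 times it at the later stages.

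Cux1, a homeodomain factor of upper layer neurons and their progenitors (ENSMUSG00000029705, chr5:136248135-136567490, reverse strand), stood at 55.6 and 58.9 TPM at E12.5 and at 47.9 and 48.9 at E14. It was at 44.3 and 42.6 at E15.5, 53.3 and 44.1 at E17, and 35.5 and 38.8 at P0. Both E12.5 libraries were above and both P0 libraries below all others. Cux1 fell by 0.61 from E12.5 to P0 (SE 0.10, adjusted p 0.000154), or by 0.34 under median-of-ratios scaling. Its locus also encodes CASP, a Golgi protein made by alternative splicing, and the table gives 1 value for the whole gene.

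Mef2c, a MADS-box factor active in differentiating neurons and in synapse development (ENSMUSG00000005583, chr13:83504034-83667080, forward strand), had the largest change of the 8 genes. It stood at 43.3 and 38.0 TPM at E12.5, 56.1 and 59.0 at E14, 298 and 325 at E15.5, 446 and 493 at E17, and 763 and 981 at P0. No 2 neighbouring stages overlapped, and the mean at P0 was 21.5 times that at E12.5. Mef2c rose by 4.38 from E12.5 to P0 (SE 0.12, adjusted p 4.63e-11). The step from E14 to E15.5 alone was 2.42 (SE 0.12, adjusted p 4.92e-08), a 5.41-fold higher mean, followed by 0.59 from E15.5 to E17 (adjusted p 0.00460) and 0.88 over the last step (0.000204). The value between E15.5 and E17 was not called without E15.5 replicate 1 (0.0565). Among the 6147 listed genes, Mef2c was in place 3223 by mean TPM at E12.5, 414 at E15.5 and 126 at P0.

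The 8 genes summed to 677 and 665 TPM at E12.5 and to 1288 and 1564 TPM at P0. Mef2c made up 6.39% and 5.71% of that sum at E12.5 and 59.3% and 62.7% at P0. Without Mef2c the sum was 634 and 627 TPM at E12.5, 782 and 784 at E15.5, and 524 and 583 at P0.

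The upstream sequence is shown for the gene that rose most, Mef2c, and the gene with the widest fall, Sox5. It is taken from RefSeq, build GRCm38.p6, as the 250 bases before a start site, 5′ to 3′ on the gene's strand. Printed windows are those with 0 bases in an exon of GENCODE release M21: the window before the first Mef2c start (chr13:83503784-83504033, forward strand), the one before its last listed start (chr13:83573357-83573606, forward strand) and the one before the Sox5 start (chr6:143947107-143947356, reverse strand). The last 2 lie inside the genes. The Sox5 window is thus not before the 5′ end of the whole gene, which GENCODE places at 144781977 on chromosome 6. Capitals mark matches to the motifs searched.
Mef2c, first start: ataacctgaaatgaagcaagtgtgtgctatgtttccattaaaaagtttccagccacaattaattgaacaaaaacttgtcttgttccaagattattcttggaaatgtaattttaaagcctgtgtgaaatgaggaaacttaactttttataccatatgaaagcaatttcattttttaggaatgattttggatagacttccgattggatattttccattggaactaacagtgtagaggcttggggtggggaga
Mef2c, last listed start: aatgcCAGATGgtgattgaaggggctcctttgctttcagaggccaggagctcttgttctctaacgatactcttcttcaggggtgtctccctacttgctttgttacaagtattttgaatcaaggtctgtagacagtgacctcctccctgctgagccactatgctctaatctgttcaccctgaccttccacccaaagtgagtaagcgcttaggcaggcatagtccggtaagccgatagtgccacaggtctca
Sox5: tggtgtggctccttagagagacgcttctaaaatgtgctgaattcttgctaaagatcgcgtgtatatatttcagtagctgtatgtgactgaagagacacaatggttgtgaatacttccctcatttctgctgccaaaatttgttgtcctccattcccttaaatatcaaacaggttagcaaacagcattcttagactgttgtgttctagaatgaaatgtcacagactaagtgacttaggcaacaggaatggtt
The first Mef2c window held 33.6% G and C with 1 CpG, the last one 49.6% with 4 CpG, and the Sox5 window 39.6% with 3 CpG. The medians over all 32851 windows of that length were 52.4% and 6 CpG. Motifs were searched on both strands, and no matches overlapped in these windows: the T-box core AGGTGTGA (in 1.12% of all windows), the SOX site AACAAT (9.42%), the MEF2 core of CTA, any 4 bases and TAG (3.20%), the forkhead site TGTTTAC (3.17%), the BCL11A site TGACCA (11.4%), the proneural E-box CAGATG (14.4%) and the GC box GGGCGG (32.7%). The last Mef2c window held 1 E-box, 245 bases before the start, and the other 2 held no match. Of the 8 genes, 7 had windows, 11 in all. Among these 11, GC boxes were in 5, SOX sites in 2, forkhead, BCL11A and E-box motifs in 1 each, and T-box and MEF2 motifs in 0. These are letters in the windows only and say nothing of binding.

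Foxp1, a forkhead factor made in cortical projection neurons and in the striatum (ENSMUSG00000030067, chr6:98925338-99522721, reverse strand), stood at 31.4 and 30.7 TPM at E12.5 and at 27.8 and 29.6 at E14. It reached 41.3 and 46.5 at E15.5, 62.3 and 57.0 at E17, and 91.8 and 107 at P0. The E14 libraries were the lowest of the 10, and each later stage lay wholly above the one before. Foxp1 rose by 1.64 from E12.5 to P0 (SE 0.10, adjusted p 3.26e-08), with 0.59 from E14 to E15.5 (adjusted p 0.000475) and 0.72 over the last step (0.000289). The value between E15.5 and E17 (0.43, adjusted p 0.0106) was not called without E15.5 replicate 1 (0.123).

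Crym is a protein that binds the thyroid hormone T3 in the cytosol (ENSMUSG00000030905, chr7:120186380-120202111, reverse strand). It stood at 11.5 and 11.0 TPM at E12.5, 21.5 and 18.7 at E14, 35.7 and 43.6 at E15.5, 47.9 and 49.0 at E17, and 50.7 and 42.2 at P0. The first 4 stages did not overlap, and P0 overlapped with both E15.5 and E17. Crym rose by 1.72 from E12.5 to E15.5 (SE 0.12, adjusted p 3.23e-07). The values from E15.5 to E17 (0.29, adjusted p 0.109), E17 to P0 (-0.06, 0.698) and E15.5 to P0 (0.22, 0.150) were not called. The last was called under median-of-ratios scaling (0.32, adjusted p 0.0481).

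The calls are given step by step. From E12.5 to E14, 3 of 8 genes rose (Crym by 0.78, Mef2c by 0.50 and Sox5 by 0.48) and 0 fell; 8.73% of all genes tested were called, 3.95% higher and 4.78% lower. This count was 1 when E12.5 replicate 1 was left out and 0 for its replicate 2, 0 for E14 replicate 1 and 1 for its replicate 2. It was 5 without either E17 library, where Bcl11b was also called higher and Cux1 lower. From E14 to E15.5, 4 rose (Mef2c, Crym, Foxp1 and Bcl11a) and 0 fell, against 51.7% of all genes called, 18.4% higher and 33.3% lower. Of these 4, Bcl11a (0.24, adjusted p 0.0408) was not called without any one E12.5, E14 or E15.5 library, with adjusted p from 0.0645 to 0.160, or with a replicate block (0.0507).

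From E15.5 to E17, 2 genes rose (Mef2c and Foxp1) and 3 fell (Sox5 by 0.64, Tbr1 by 0.45 and Bcl11b by 0.42), against 25.0% of all genes called, 14.4% higher and 10.6% lower. Leaving out E15.5 replicate 1 gave a count of 0, and leaving out its replicate 2 gave 3 (Mef2c, Foxp1 and Sox5). The call of Bcl11b (adjusted p 0.0460) held without E17 replicate 1 and was lost without each of the other 9 libraries (adjusted p 0.0576 to 0.176); the value without E17 replicate 2 was -0.17. It was also lost with no filter on low values (0.0727), a total without embryonic globins and Ttr (0.0674), no variance trend (0.0629) and only the stages compared (0.195), so that 2 rises stood beside 2 falls in the first 3 of these. From E17 to P0, 2 rose (Mef2c and Foxp1) and 5 fell (Sox5 by 0.91, Bcl11b by 0.54, Tbr1 by 0.48, Cux1 by 0.38 and Bcl11a by 0.28), against 41.7% of all genes called, 12.9% higher and 28.8% lower. Of these falls, Cux1 and Bcl11a were not called in limma with array weights (adjusted p 0.106 and 0.161). They were not called with only the stages compared either (0.116 and 0.166). Without P0 replicate 1 the count was 4, as Bcl11b (adjusted p 0.109), Cux1 (0.0805) and Bcl11a (0.142) were not called; Bcl11a was not called without E17 replicate 1 either (0.124), nor under median-of-ratios scaling (0.0861).

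Over the longer spans, 6 of 8 genes rose and Cux1 fell (-0.39, adjusted p 0.00518) from E12.5 to E15.5, against 65.1% of all genes called, 22.3% higher and 42.8% lower. From E15.5 to P0, 2 rose and 4 fell, against 50.2% of all genes called, 19.5% higher and 30.7% lower. Mef2c and Foxp1 were the 2 that rose in both spans, and Sox5, Bcl11a and Bcl11b rose in the first and fell in the second. On the scale used, the median of all genes fell by 0.17 from E12.5 to E15.5 and by 0.09 from E15.5 to P0. Relative to that median, Tbr1 was at 0.14 in the first span and -0.84 in the second.

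**Figure D2:**
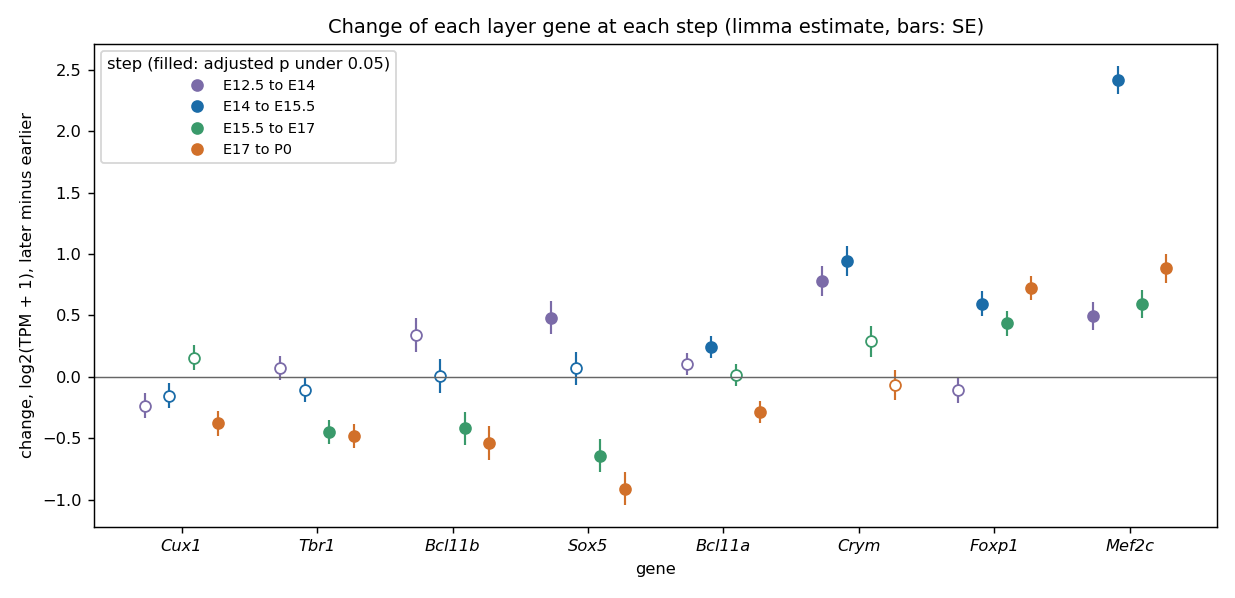
Change of each gene between neighbouring stages on the log2(TPM + 1) scale (vertical axis), as limma's estimate with its SE (bars); filled points had an adjusted p under 0.05. Mef2c from E14 to E15.5 (2.42) is far above the other points, and the points of Tbr1, Bcl11b and Sox5 for the last 2 steps lie below 0.

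The order of the 8 genes by level also turned over. At E12.5 it was Bcl11a, Tbr1, Sox5, Bcl11b, Cux1, Mef2c, Foxp1 and Crym, and no 2 neighbours in that order overlapped. At E14 Bcl11a and Sox5 overlapped, as did Tbr1 and Bcl11b. At P0 the order was Mef2c, Bcl11a, Foxp1, Tbr1, Bcl11b, Sox5, Crym and Cux1, with only Tbr1 (69.3 and 77.6 TPM) and Bcl11b (66.2 and 79.9 TPM) overlapping. Foxp1, at 0.565 and 0.522 times Cux1 at E12.5, was at 2.59 and 2.75 times Cux1 at P0. Mef2c went from 0.306 and 0.258 times Tbr1 at E12.5 to 11.0 and 12.6 times at P0.

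Other genes of cortical layers and projection neurons were taken from a list of 32, of which 9 were in the table. From E12.5 to P0, 6 of these 9 rose and 3 fell, with a median of 1.01 against -0.27 for all genes tested, of which 27.1% were called higher and 51.0% lower. Ldb2, a LIM-domain binding cofactor of deep layer neurons, rose most (3.33, SE 0.09), from 13.0 to 140 TPM. Lmo3 (1.90), Tle4 (1.17), Zbtb18 (1.15), Pou3f2 (1.01) and Neurod2 (0.56) also rose, and Nfia (-1.51), Nfib (-1.39) and Plxnd1 (-0.96) fell. Each kept its call and direction under median-of-ratios scaling and quantile normalization.

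From E14 to E15.5, 6 of these 9 rose and 2 fell (Plxnd1 and Nfia), against 18.4% of all genes called higher and 33.3% lower. The step that held the largest change of Mef2c thus also held a rise of 1.69 in Ldb2 (SE 0.09) and of 1.53 in the upper layer POU factor Pou3f2 (SE 0.10). Pou3f2 went from 100.2 to 292 TPM at that step and fell by 0.88 from E15.5 to P0, while Ldb2 rose by a further 0.97 to P0.

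**Figure D3:**
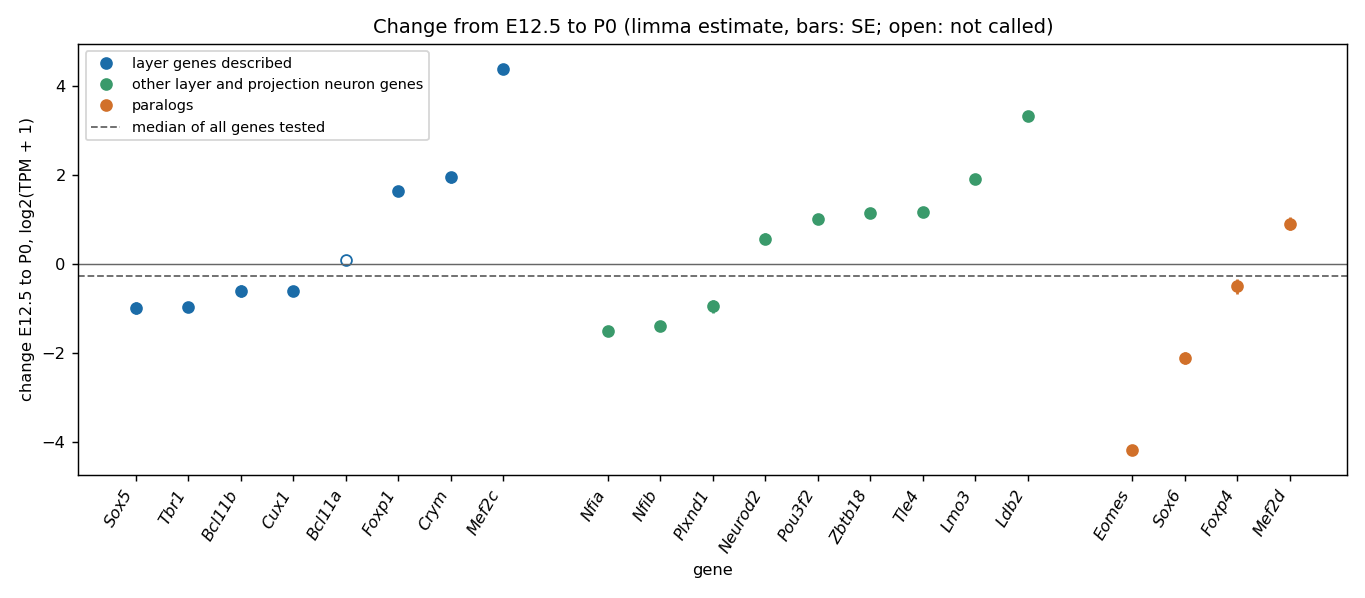
Change from E12.5 to P0 on the log2(TPM + 1) scale (vertical axis) as limma's estimate with its SE, for the 8 layer genes, 9 other layer genes and 4 paralogs; the dashed line is the median of all genes tested, -0.27, and the open point (Bcl11a) was not called. Mef2c (4.38) is the highest and Eomes (-4.19) the lowest.

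Of 12 paralogs of these factors listed, 4 were in the table. From E12.5 to P0, 1 of them rose and 3 fell, against 27.1% of all genes tested called higher and 51.0% lower. Mef2d, Eomes and Sox6 moved in the same direction as their relative among the 8 genes, and Foxp4 did not. Eomes, the T-box factor of intermediate progenitors, fell by 4.19 from E12.5 to P0 (168 to 8.24 TPM), so that Tbr1 went from 0.864 and 0.856 times Eomes at E12.5 to 8.37 and 9.46 times at P0. Sox6, which is made in cortical progenitors, fell by 2.12, and by 0.99 already from E14 to E15.5, where Sox5 was at 0.07 (adjusted p 0.685). Sox5 was at 1.27 and 1.17 times Sox6 at E12.5, at 4.21 and 4.30 times at E15.5 and at 2.72 and 2.75 times at P0. Mef2d rose by 0.90, from 43.5 to 82.0 TPM, and Mef2c went from 1.03 and 0.848 times Mef2d at E12.5 to 9.64 and 11.6 times at P0. Foxp4 fell by 0.51 (adjusted p 0.0155), a call lost under median-of-ratios scaling and quantile normalization, and the ratio of Foxp1 to Foxp4 went from 0.517 and 0.443 to 1.93 and 2.48. The differences between paralogs were not tested.

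**Figure D4:**
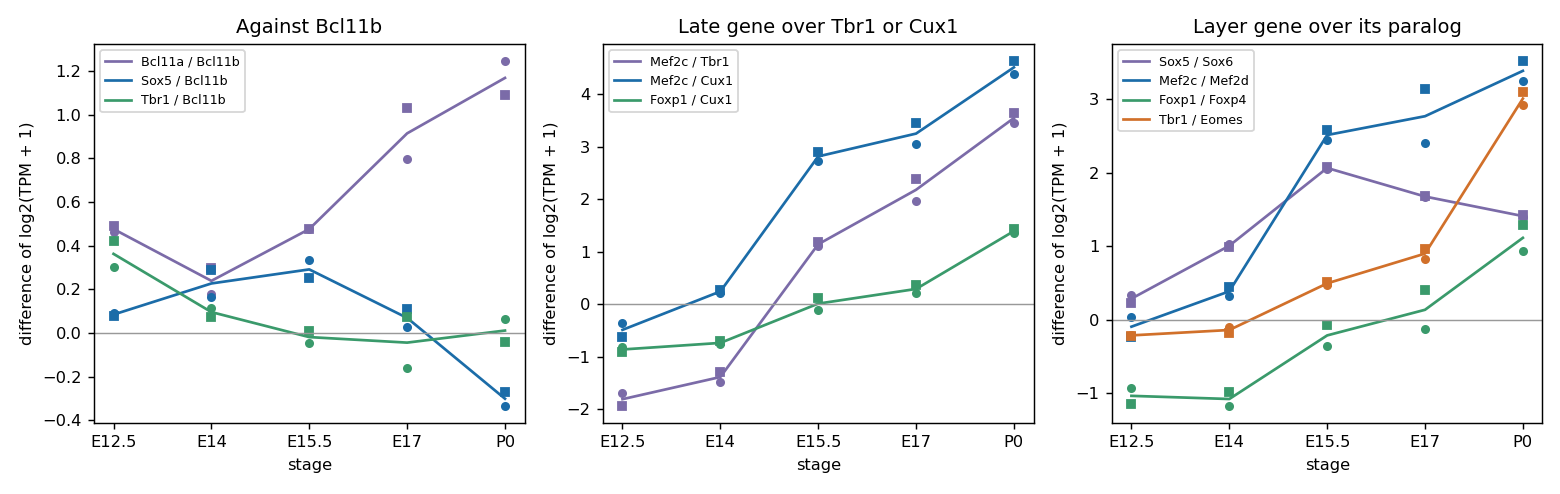
Within-library ratios as differences of log2(TPM + 1) (vertical axis) by stage; circles are replicate 1, squares replicate 2 and lines join the means, and 0 means equal levels. Mef2c crosses from below to above Tbr1 between E14 and E15.5, and Bcl11a over Bcl11b is highest at P0 (1.17 on average).

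Bcl11a and Bcl11b act with the NuRD and BAF chromatin complexes, Mef2c with class IIa histone deacetylases and Tbr1 with Cask. Of 26 such cofactors listed, 23 were in the table. From E12.5 to P0, 17 fell and 4 rose, with a median of -0.54 against -0.27 for all genes, of which 51.0% were called lower and 27.1% higher. Under median-of-ratios scaling 12 fell and 6 rose, with a median of -0.26 against -0.01, and 2282 of the 6048 genes were called lower and 2293 higher. Chd4, the NuRD remodelling enzyme, fell most (-1.52, SE 0.13), from 96.6 to 33.3 TPM, and the BAF enzyme Smarca4 fell by 1.14. Tle4, which is also in the list of layer genes, rose most (1.17), and Cask rose by 0.48.

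Of 6 reported targets of these factors, 4 were in the table. From E12.5 to P0, 1 of the 4 rose and 2 fell, against 27.1% of all genes tested called higher and 51.0% lower. Auts2, a target of Tbr1, fell by 0.93 from E12.5 to P0 (130 to 67.7 TPM), and by 0.85 from E15.5 to P0. Grin2b, a glutamate receptor subunit gene and target of Tbr1, rose by 2.77 from E12.5 to P0 (9.44 to 70.6 TPM). Its mean was highest at E17, where the libraries lay far apart (191 and 79.2 TPM). It was at 0.16 from E15.5 to P0 (adjusted p 0.669 in limma). From E17 to P0 all 4 targets were called lower, Grin2b by 0.80 (adjusted p 0.0426), against 28.8% of all genes tested. Reln, an extracellular guide of neuronal migration, fell by 0.43 from E12.5 to P0 (adjusted p 0.0282), and Ephb1 was at 0.22 (adjusted p 0.178). Under median-of-ratios scaling 2 of the 4 rose and 1 fell, with Reln at -0.17 and Ephb1 at 0.48. That scaling called 2293 of all 6048 genes higher and 2282 lower. The median of the 4 was -0.11 against -0.27 for all genes, and 0.15 against -0.01 under median-of-ratios scaling. Of 9 thyroid hormone genes only the receptor gene Thra was in the table; it rose by 2.08 from E12.5 to P0 (SE 0.10), from 267 to 1137 TPM, beside the rise of Crym.

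The genes most like each member were found by Pearson correlation of log2(TPM + 1) over the 10 libraries among 5422 genes that averaged 10 TPM or more. They were Rundc3b (0.998) and Exoc6 (0.997) for Mef2c, Shroom2 and Rasgrp2 (both 0.992) for Foxp1, Nagk (0.992) and Myl6b (0.990) for Crym, and Ppp2r1b (0.990) and Kdm1a (0.987) for Tbr1. For Sox5 they were Bcl2 (0.984) and Rbm4b (0.980), for Bcl11b Cblb (0.977) and Lbh (0.971), for Bcl11a Prdm8 (0.978) and Ttc28 (0.977), and for Cux1 Armcx4 (0.980) and Recql (0.977). Rundc3b, the nearest to Mef2c, stood at 15.0 TPM at E12.5, 43.4 at E15.5 and 79.5 at P0. The 10 points share 5 stages, so these values describe a common course only.

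Markers of other cells moved with the stages. Of 5 markers of cortical excitatory neurons, Emx1 and Neurod2 (2 of 5) were in the table and together held 418 to 423 TPM at E12.5, 588 to 607 at E15.5 and 404 to 436 at P0. They moved in opposite directions: from E12.5 to P0 Emx1, also made in cortical progenitors, fell by 1.70 (173 to 52.6 TPM) and Neurod2 rose by 0.56 (248 to 367 TPM). The erythroid markers (3 of 10 present, Hbb-y the main one) summed to 1880 to 4494 TPM in the 4 libraries of E12.5 and E14 and to 2.04 to 9.84 in the 6 later ones. The choroid plexus markers Ttr and Clic6 (2 of 6) went from 303 to 1517 TPM in the 4 early libraries to 3.07 to 5.26 in the later ones. The meningeal markers (5 of 6) went from 106 to 173 TPM to 2.22 to 6.63, and the vascular markers Cdh5 and Vtn (2 of 10) from 23.6 to 32.3 TPM to 2.60 to 8.39. No marker of these lists was at 0 in both libraries of E12.5 or E14, and Hbb-bh1 was at 0 in both P0 libraries.

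The early stages also differed from each other, over the step at which Crym, Mef2c and Sox5 were called higher. Erythroid markers went from 4323 to 4494 TPM at E12.5 to 1880 to 1975 at E14, and meningeal markers from 173 to 106 to 111. Choroid plexus markers went up, from 303 to 452 TPM at E12.5 to 1405 to 1517 at E14. The drop to the later levels fell between E14 and E15.5, the step at which Mef2c, Crym, Foxp1 and Bcl11a rose. With a total without embryonic globins and Ttr, those 4 rises were 2.41, 0.94, 0.59 and 0.24, against 2.42, 0.94, 0.59 and 0.24 as deposited. That total takes out the share of those transcripts only. The part of the changes in cells in the calls of either step was not tested. The 2 intermediate progenitor markers present (2 of 6), Eomes and Insm1, summed to 261 to 281 TPM in the 4 early libraries, 220 at E15.5, 123 to 165 at E17 and 36.4 to 38.5 at P0. Of the 8 of 11 radial glia markers present, 6 fell from E12.5 to P0, among them Pax6 (128 to 13.9 TPM), Vim (655 to 94.3) and Hmga2 (234 to 0.608), and the median change was -2.86. The other 2 rose, Fabp7 (731 to 1406 TPM) and Slc1a3 (56.4 to 65.9), so their sum moved less, from 2192 to 2195 TPM at E12.5 to 1646 to 1676 at P0. Of the 4 of 7 astrocyte markers present, Gfap (0.155 to 26.6 TPM), Aldh1l1 (0.255 to 13.8) and Slc1a2 (29.0 to 54.8) rose and Aldoc (271 to 126) fell. The 1 of 8 interneuron markers present went from 1.82 to 1.93 TPM at E12.5 to 9.79 to 11.4 at P0, a rise of 2.01. Because Foxp1, Bcl11b and Mef2c are also made in striatal neurons and Mef2c in microglia, those lists were checked too. The 1 of 11 striatal markers present, Ppp1r1b, stood at 27.9 to 28.9 TPM at E12.5, 89.7 to 90.9 at E15.5 and 62.5 to 64.7 at P0. The 1 of 9 microglial markers present, C1qb, lay between 4.66 and 8.93 TPM in all 10 libraries. Reln is also a marker of Cajal-Retzius cells. The 2 of 5 such markers present summed to 28.8 to 33.6 TPM at E12.5, 36.7 to 44.7 at E17 and 36.8 to 36.9 at P0. From E12.5 to P0, Reln fell and the other rose. Their part in the results was not tested either.

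**Figure D5:**
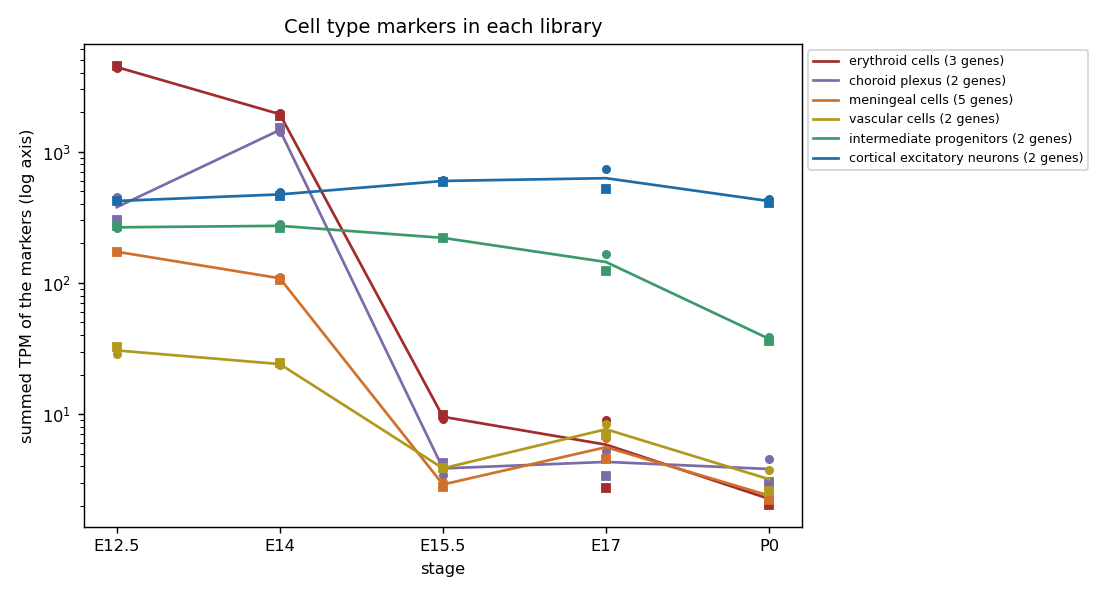
Summed TPM of the markers of 6 cell types (vertical log axis) by stage; circles are replicate 1, squares replicate 2 and lines join the means. Erythroid, choroid plexus, meningeal and vascular markers drop between E14 and E15.5, and intermediate progenitor markers are lowest at P0 (36.4 to 38.5 TPM).

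The 8 genes lie on 7 chromosomes in GENCODE release M21, which was matched by identifier for all 6048 genes tested; Sox5 and Foxp1 share chromosome 6. Sox5 spans 954 kb and Foxp1 597 kb, longer than 99.6% and 99.1% of the genes tested, whose median is 29.2 kb. Tbr1 (11.2 kb) and Crym (15.7 kb) are shorter than that median. Exons of Cux1, Bcl11a and Sox5 overlap an antisense gene, and exons of Foxp1 overlap a microRNA gene and a protein-coding gene on the same strand. No source used here says whether the counting of reads used strand, so reads in those exons may be shared.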

How the data were processed

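The data are deposited TPM values, 1 column per library, for 10 libraries of mouse neocortex. Per the labels' protocols, RNA came from a detergent lysate of frozen tissue, spun clear before TRIzol LS extraction, and stranded libraries were made of its polyadenylated part. Per the submitters' processing notes, STAR, Subread and GRCm38.p5 were used, with no version of the tools given. No source used here gives the gene lengths behind the TPM or how the listed genes were chosen. The listed genes held 68.9% to 71.7% of all TPM per library; the number of reads is unknown, so no counting error can be given.

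Groups were taken from the labelled stage, and columns were matched to libraries by name (0 columns without a sample). Values were analysed as log2(TPM + 1), which understates changes of low genes, for the 6048 genes that averaged 1 TPM or more (99 left out). limma 3.58.1 in R 4.3.3 fitted 1 mean per stage over all 10 libraries (5 residual degrees of freedom), with a variance trend and Benjamini-Hochberg adjustment over all genes tested, called under 0.05. In a simulated table of 6048 genes, 194 of 200 genes shifted by 1 and 144 of 200 shifted by 0.5 were recovered from E12.5 to P0. Each simulated gene had 1 spread at all stages, and all other genes stayed unchanged. In the data the spread differed by stage and most genes changed, so these shares do not give the recovery in these data. Positions came from GENCODE M21 (GRCm38) and upstream sequence from RefSeq (GRCm38.p6). Figures used Python 3.11.15 and matplotlib 3.10.9.

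The members, lists and tests were chosen with earlier results of these data known. Named were all members, the 2 genes most like each member, the most changed genes of each list, other genes of a list where it is described, and markers. Some genes of these lists are not reported here. The likeness search left out predicted genes (Gm, LOC and Rik names). There were 23 alternatives: quantile normalization, pseudocounts of 0.1 and 10 TPM, median-of-ratios scaling, no filter, a minimum of 5 TPM, a total without embryonic globins and Ttr, no variance trend, robust moderation, array weights, only the stages compared, a replicate block, a threshold of 0.01, and each library left out. No gene had the same value above 0 in both libraries of a stage (0 of 6048 at each of 5 stages).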

Additional observations from a re-analysis of the deposited data

How the results depend on the processing

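The 8 genes called over the 5 stages and the 7 called from E12.5 to P0 stayed within 1.5 times under every alternative (8 and between 7 and 8). From E12.5 to E14, 3 genes were called; the count was 5 with array weights, 5 with only the stages compared and 1 at a threshold of 0.01, and ran from 0 to 5 without single libraries. From E15.5 to E17 it was 5; 3 at a threshold of 0.01, 0 with only the stages compared, and 0 to 5 without single libraries. From E17 to P0 it was 7; 4 at a threshold of 0.01, and 4 to 7 without single libraries. Without single libraries it ran from 3 to 4 from E14 to E15.5, 6 to 7 from E12.5 to E15.5 and 5 to 7 from E15.5 to P0. Array weights and the fit of only the stages compared each lost Cux1 and Bcl11a from E17 to P0. The cause was not tested, beyond the fewer libraries or the stricter threshold in the fit. The share of all genes called under these settings is not given for these steps, so a moved count cannot be told from a move over all genes. From E12.5 to P0, array weights called 1733 of 6048 genes higher and 3229 lower, against 1641 and 3087 as deposited. A threshold of 0.01 called 1448 and 2727.

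Values that turned sign were not called as deposited. From E14 to E15.5, Tbr1 was at 0.0098 under median-of-ratios scaling, and Bcl11b lay between -0.041 and 0.050 when single libraries were left out, at -0.041 without E14 replicate 2 and -0.0010 without E15.5 replicate 1. From E15.5 to E17 Bcl11a lay between -0.12 (without E17 replicate 1) and 0.15. From E17 to P0 Crym was at 0.052 under quantile normalization and 0.045 under median-of-ratios scaling, and lay between -0.19 and 0.065 (without P0 replicate 2) when single libraries were left out. From E12.5 to E15.5 Tbr1 was at 0.057 under quantile normalization and 0.14 under median-of-ratios scaling.

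Replicate numbers were not shown to pair the libraries: of 10 pairs of stages, the deviations of same-numbered libraries correlated above 0.1 in 1, with values from -0.37 to 0.11. With a replicate block 2 genes were called from E12.5 to E14, as Sox5 had an adjusted p of 0.0520, and 3 from E14 to E15.5, as Bcl11a had 0.0507; it changed no other call in the 7 comparisons.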
